A study of Ictidomys tridecemlineatus with 31 samples.

Results

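The genes described here are 8 transcriptional repressors of the circadian clock, Per1, Per2, Per3, Cry1, Cry2, Ciart, Bhlhe40 and Bhlhe41, in the kidney of the ground squirrel Ictidomys tridecemlineatus. They are given by symbol, a choice made with earlier results of these data known, and each had exactly 1 row among the 12863 genes of the table. Bhlhe41, a repressor that competes for the binding site of the clock activators, was higher in hibernation than in the active season by 0.73 ± 0.10 on the log2 scale. Per3 was higher there by 0.59 ± 0.13, a call that stood just under the threshold and was lost when any 1 of 23 of the 29 animals tested was left out. Ciart, which binds the CLOCK and BMAL1 activators, lay above every other state in each late arousal kidney. By the values given here, however, it passed the filter on low values through late arousal alone, so its values there are given as a description. No change across the states was called for Per1, Per2, Per3, Cry1, Cry2 or Bhlhe40. The call of Per3 was that of hibernation against the active season.

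In the core clock loop, CLOCK and BMAL1 bind E-box elements and turn on the Per and Cry genes, whose proteins return to the nucleus as a complex and repress that activity. CIART binds the same activators, while the basic helix-loop-helix proteins BHLHE40 and BHLHE41, also called DEC1 and DEC2, compete for the E-box itself. The loop runs in kidney tubule cells, where it sets daily rhythms of transport genes, and PER1 is known to regulate the epithelial sodium channel.

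Each kidney came from a different animal in 1 of 6 states. Summer active (SA) animals were fattening and warm, and spring dark (SpD) animals were warm again after their last torpor bout but still housed in the dark hibernaculum. The other states belong to the torpor and arousal cycle of hibernation, namely interbout aroused (IBA), shortly after rewarming, entrance (Ent), cooling toward torpor, early arousing (EAr), cold and starting to rewarm, and late arousing (LAr), partly rewarmed and still warming. The animals were not treated or genetically altered, and state was assigned from spontaneous body temperature. They came from a captive breeding colony or a commercial supplier, and their exact ages are not given in the sources used here. The hour of the day at which each animal was killed is likewise not given in the sources used here, and the part of time of day in these values was not tested.

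The table held 31 animals, 17 females and 14 males, with 5 each in SA, IBA, Ent, EAr and SpD and 6 in LAr. Expression is given as regularized log (rlog) values, which are normalised read counts on the log2 scale, and the authors had removed a batch effect from them. No read counts came with the table, so its depth is unknown, and rlog draws the values of a gene with few reads toward its mean. The values are not per length, so levels are compared between animals and not between genes. Experiment 1 supplied 9 animals, 3 each of IBA, Ent and SpD, with a different library kit from that of the 22 animals of experiment 2, so SA, EAr and LAr came from experiment 2 alone. The study treated the late arousing animal K113 and the summer active animal K137 as outliers, and also K136, which is not analysed here. K113 and K137 are given apart, and the 29 others are the basis of each test, made with limma with state, sex and experiment as terms and called at an adjusted p under 0.001. Fitted levels are on the scale of experiment 2, and ± after a fitted level or difference is its SE.

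Kidney tubule markers were high in the 31 animals (mean of the 5 proximal tubule markers at least 13.4 in each), none of the 3 adrenal markers was in the table, and none of the 23 cell type markers in the table changed across the states at the threshold in limma (8 passed 0.05, and 10 an unadjusted p of 0.05). The inner medulla markers Slc14a2 and Aqp3 had a mean of 8.43 to 8.91 in the 5 LAr animals and 8.36 to 13.06 in the other states. In K113 and K137 the same mean was 12.83 and 13.59. In these bulk samples fewer cells of a type and less RNA per cell cannot be told apart.

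Ciart aside, 1 of the 7 repressors changed across the 6 states, Bhlhe41 (adjusted p = 1.19e-04), where 9.34% of all 12863 genes were called. At a threshold of 0.05 there were 4 of 7, with Cry1 (adjusted p = 0.00450), Bhlhe40 (adjusted p = 0.00686) and Per3 (adjusted p = 0.0102), beside 46.1% of all genes. Limma called Ciart as well, making 2 of 8. By the batch-corrected values it is in the table only through its highest state. Such a gene had to differ between states, and nothing is read from that call. Per1 (adjusted p = 0.163), Cry2 (adjusted p = 0.654) and Per2 (adjusted p = 0.950) passed neither. Bhlhe41 was called with all 31 animals too (adjusted p = 5.53e-04), and whichever of the 29 animals was left out (adjusted p of at most 4.16e-04). In experiment 2 alone Cry1 was called in addition (adjusted p = 5.92e-04).

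**Figure D1:**
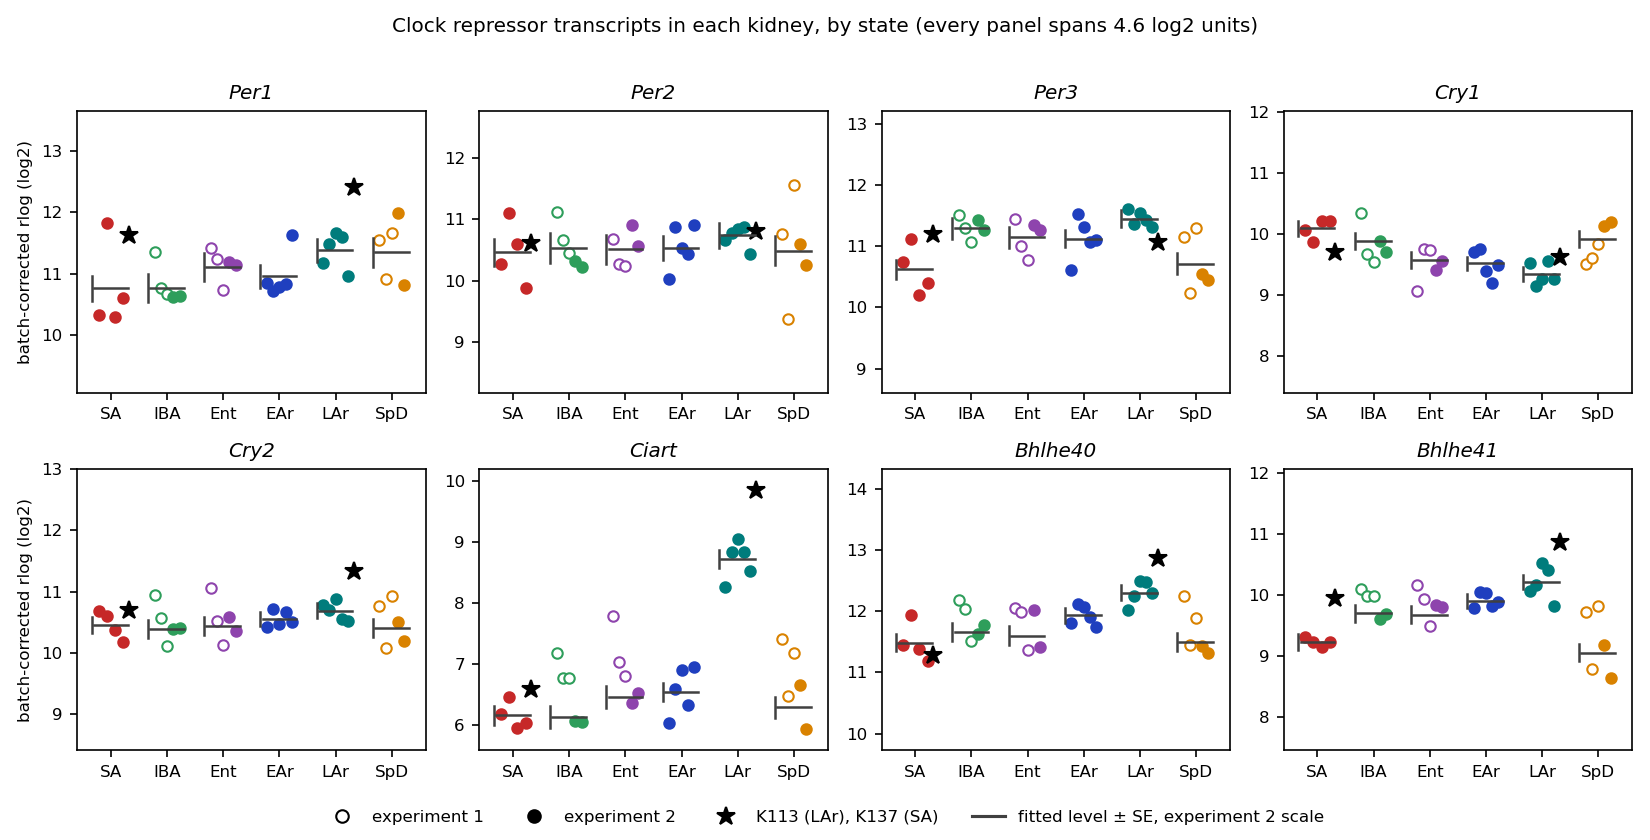
Batch-corrected rlog values (log2, vertical axis) of the 8 clock repressors in each kidney by state, with open circles for experiment 1, filled circles for experiment 2 and stars for K113 (LAr) and K137 (SA). Grey lines give the fitted level and its SE on the experiment 2 scale, and every panel spans the same number of log2 units. The Ciart values of the 5 LAr animals, 8.27 to 9.05, lie above those of all other states.

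The Period genes encode the PER proteins, the limiting scaffold of the repressor complex, of which Per1 and Per2 are also induced acutely by cAMP and glucocorticoid signals. Per1 (gene15500) had fitted levels from 10.76 ± 0.21 in SA to 11.38 in LAr, and no 2 neighbouring levels differed beyond their spread. Per1 read 11.83 in the SA animal K139, while the 3 other SA animals of the test set read 10.29 to 10.59. Per1 in IBA read 11.35 in K1 and 10.62 to 10.76 in the other 4. In EAr it read 11.64 in K165 and 10.71 to 10.84 in the other 4. Single animals therefore set the range of Per1 in 3 states, and its residual SD of 0.44 was at the 95.7th percentile of all genes. LAr animals read 10.96 to 11.66 and SpD animals 10.82 to 11.99, overlapping every other state. Without K139 the adjusted p of Per1 across the states was 0.0131 instead of 0.163.

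Per2 (gene9636) had the smallest spread of fitted levels of the 8 genes, 0.27 between SA (10.46) and LAr (10.74). The difference of IBA minus LAr was -0.20 (95% interval -0.84 to 0.44), and that of LAr minus EAr was 0.20 (95% interval -0.37 to 0.78). Animals within each state differed by more than the state levels did. SpD animals read 10.76, 9.37 and 11.57 in experiment 1 and 10.60 and 10.25 in experiment 2, the lowest and the highest value of the whole table for this gene. LAr was the tightest state, with 4 of its 5 animals at 10.66 to 10.87 and K116 at 10.43.

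Per3 is not required for the rhythm itself but adjusts its timing. Per3 (gene17229) read 11.31 to 11.61 in the 5 LAr animals (11.36, 11.43, 11.54, 11.61 and 11.31) and 10.21 to 11.13 in the 4 SA animals (10.74, 11.13, 10.21 and 10.40), with no overlap. In SpD it read 11.14, 10.23 and 11.29 in experiment 1 and 10.55 and 10.45 in experiment 2, which also lay below each of these 5 LAr animals. The LAr animal K113, given apart, read 11.07, within the ranges of SA and SpD. The IBA animals read 11.51, 11.30, 11.07, 11.42 and 11.26, overlapping LAr through K1 and K104, SA through K139 and SpD through K3 and K9. Ent animals ran from 10.77 to 11.45 and EAr animals from 10.61 to 11.53. Fitted levels ascended in the order SA 10.62, SpD 10.71, EAr 11.12, Ent 11.15, IBA 11.29 and LAr 11.45. No neighbouring pair in this order differed beyond its spread, the widest gap being that between SpD and EAr (0.41, adjusted p = 0.200).

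The Cryptochrome genes encode CRY1 and CRY2, which bind CLOCK and BMAL1 directly, CRY1 being the stronger repressor and the later of the pair in the daily cycle. Cry1 (gene5966) was the only one of the 8 genes whose fitted level was lowest in LAr, while the other 7 were highest there. Without a term for experiment 6 of the 8 were highest in LAr, with Per1 highest in SpD, and in experiment 2 alone 5 were, with Per1 highest in SpD and Per2 in Ent, and Cry1 was lowest in LAr in each of these fits. Cry1 read 9.15 to 9.56 in LAr (9.52, 9.15, 9.27, 9.56 and 9.26) and 9.87 to 10.21 in SA (10.07, 9.87, 10.21 and 10.21), without overlap. EAr animals (9.71, 9.75, 9.40, 9.20 and 9.49) also lay below all 4 SA animals, while K137, given apart, read 9.70, within the EAr range. The IBA animals read 10.34, 9.67 and 9.53 in experiment 1 and 9.88 and 9.70 in experiment 2, so that K7 overlapped LAr. Fitted levels were LAr 9.34, EAr 9.52, Ent 9.57, IBA 9.89, SpD 9.91 and SA 10.09, with no neighbouring pair called (adjusted p of at least 0.165). In SpD the experiments parted, with 9.51 to 9.84 in experiment 1 and 10.12 and 10.19 in experiment 2, although the interaction of experiment with state did not pass over all genes (adjusted p = 0.519).

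Cry2 (gene13010) was nearly level, from 10.39 in IBA to 10.69 in LAr. Its values ran from 10.07 in the SpD animal K6 to 11.05 in the Ent animal K2, and all 6 states overlapped. The fitted difference of IBA minus LAr was -0.30 (95% interval -0.68 to 0.08) and that of hibernation minus active was 0.09 (95% interval -0.13 to 0.31).

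Ciart (gene14012, also known as Chrono) read 8.27, 8.83, 9.05, 8.83 and 8.53 in the 5 LAr animals. It read 6.03, 6.59, 6.91, 6.32 and 6.95 in EAr and 6.19, 6.47, 5.95 and 6.04 in SA. The highest value outside LAr was 7.79, in the Ent animal K2, which is 0.48 below the lowest LAr animal.

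IBA animals read 7.18, 6.78 and 6.77 in experiment 1 and 6.07 and 6.06 in experiment 2. Ent animals read 7.79, 7.03 and 6.81 in experiment 1 and 6.36 and 6.52 in experiment 2. SpD animals read 7.41, 6.47 and 7.19 in experiment 1 and 6.66 and 5.94 in experiment 2. In IBA and Ent all experiment 1 animals were thus above the experiment 2 animals, and the coefficient of experiment 2 minus experiment 1 was -0.76 ± 0.17 (adjusted p = 0.0913). The authors' correction had made the means of the experiments over all animals equal, and LAr was in experiment 2 alone. Equal means with high LAr values require the other experiment 2 animals to lie lower on average than experiment 1. How much of the gap this makes up was not tested. Within experiment 2 alone IBA minus LAr was -2.57, LAr minus Ent 2.28 and LAr minus SpD 2.42.

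On the experiment 2 scale the Ciart levels were IBA 6.13, SA 6.16, SpD 6.30, Ent 6.46, EAr 6.54 and LAr 8.72. No step between neighbouring levels of the 7 other genes passed the threshold. LAr was also the only state in which at least 4 animals reached an rlog value of 7 (6 of 6, against 1 in IBA, 2 in Ent, 2 in SpD and 0 in SA and EAr). The authors filtered before their batch correction, on values not given here. By the corrected values Ciart passed the authors' filter on low values through LAr alone, the state where it was high, and below 7 its values are those of a gene with few reads. Its differences between LAr and other states were therefore favoured by the filter, and they follow as sizes without a p-value.

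LAr minus EAr was 2.18 ± 0.20 for Ciart (95% interval 1.76 to 2.60), a 4.53-fold higher level in LAr, and IBA minus LAr was -2.59 ± 0.22 (95% interval -3.05 to -2.13), 6.02-fold higher in LAr. With K113 in LAr the differences were 2.36 and -2.75, and a fit of IBA and LAr alone gave -2.71. None of the 7 other repressors was called by limma in LAr minus EAr, where 0.295% of all genes were, or in IBA minus LAr, where 1.43% were, and 1 and 4 of the 7 had an unadjusted p under 0.05.

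Of the inner medulla markers, Slc14a2 had its lowest fitted level in LAr (6.44, against 8.97 in EAr), and Aqp3 had 10.93 in LAr and 10.83 in EAr. In K113 both were high, and its Ciart value (9.84) was above those of the 5 other LAr animals. The part of these markers in the Ciart difference between the other animals was not tested.

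Bhlhe40 and Bhlhe41 are E-box repressors that respond within hours to hormones, feeding and hypoxia. Bhlhe40 (gene13842) read 12.01, 12.25, 12.50, 12.47 and 12.29 in LAr and 11.44, 11.94, 11.38 and 11.19 in SA, which did not overlap. In EAr it read 11.81, 12.12, 12.06, 11.90 and 11.74, and only the lowest LAr animal, K109, fell within that range. IBA animals read 12.18, 12.03 and 11.51 in experiment 1 and 11.62 and 11.77 in experiment 2, so K1 and K4 reached into the LAr range. Ent animals ran from 11.36 to 12.06 and SpD animals from 11.32 to 12.25. Fitted levels ascended from SA (11.49), SpD (11.50), Ent (11.60) and IBA (11.66) to EAr (11.93) and LAr (12.30).

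Bhlhe41 (gene11915), called across the states, read 9.31, 9.23, 9.15 and 9.23 in the 4 SA animals, a range of 0.16. LAr animals read 10.07, 10.17, 10.53, 10.40 and 9.82, EAr animals 9.80, 10.05, 10.04, 9.82 and 9.89, and IBA animals 10.10, 9.98, 9.99, 9.61 and 9.70. Each of these animals, and each Ent animal (9.50 to 10.17), was above all 4 SA animals of the test set, so these 4 overlapped with no hibernation state. The SA animal K137, given apart, read 9.96, within the range of each hibernation state. SpD was wider, at 9.72, 8.78 and 9.81 in experiment 1 and 9.19 and 8.65 in experiment 2, and overlapped IBA, Ent and EAr but not LAr. Fitted levels were SpD 9.06, SA 9.23, Ent 9.68, IBA 9.71, EAr 9.91 and LAr 10.21. No neighbouring pair in this order was called (adjusted p of at least 0.113), although the SA animals of the test set did not overlap the Ent animals. The extremes were called, in comparisons outside the 7 sequential pairs and read after the values were seen, with LAr minus SpD at 1.15 ± 0.18 (adjusted p = 1.47e-04, 2.01% of all genes called) and LAr minus SA at 0.98 ± 0.17 (adjusted p = 2.14e-04, 5.47% called).

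**Figure D2:**
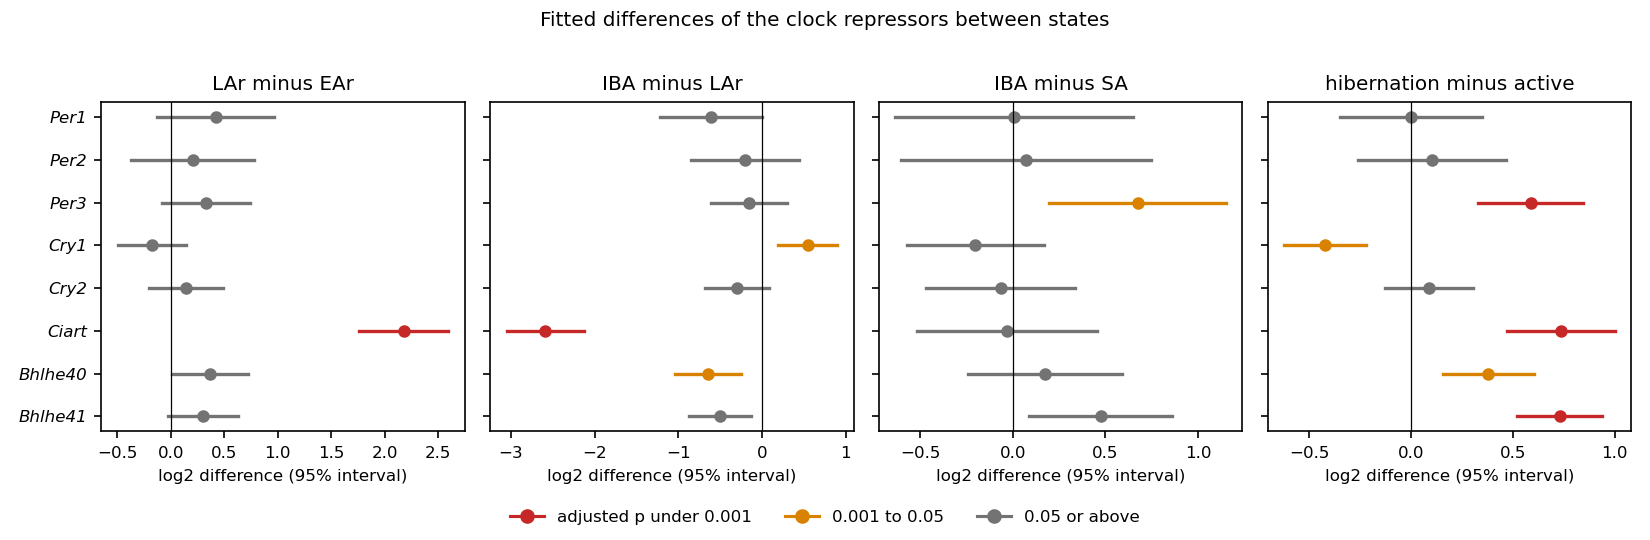
Fitted log2 differences (points, horizontal axis) with 95% intervals (lines) of the 8 repressors for LAr minus EAr, IBA minus LAr, IBA minus SA and the mean of the hibernation states minus the mean of the active states, each panel with its own axis range. Colours give the adjusted p, and the Ciart intervals in the panels of LAr, 1.76 to 2.60 and -3.05 to -2.13, stand apart from those of the other 7 genes. Nothing is read from the colour of Ciart.

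None of the 8 genes was called in the other 5 sequential pairs, namely SA minus SpD (0.0544% of all genes called), IBA minus SA (3.15%), Ent minus IBA (0.746%), EAr minus Ent (0.132%) and SpD minus IBA (1.25%). At an unadjusted p of 0.05 in the same limma fit there were 0, 2, 1, 0 and 3 members in these pairs. At an adjusted p under 0.05 the repressors gave 1 call in IBA minus SA, Per3 at 0.67 ± 0.23 (adjusted p = 0.0379), where 22.9% of all genes passed, and leaving out any 1 of 7 animals (K1, K104, K171, K138, K140, K141 or K155) brought it above 0.05, up to 0.119, as did the fit with all 31 animals (0.121) and that of the 2 states alone (0.211). They gave 1 in SpD minus IBA, Bhlhe41 at -0.65 ± 0.16 (adjusted p = 0.00997), where 11.9% passed. Within experiment 1 that difference was -0.58 and within experiment 2 it was -0.74, and a fit of the 2 states alone gave an adjusted p of 0.0951. In IBA minus LAr, where 18.0% of all genes passed 0.05, Cry1 was 0.54 ± 0.17 higher in IBA (adjusted p = 0.0293) and Bhlhe40 was 0.64 lower (-0.64 ± 0.19, adjusted p = 0.0226). Within experiment 2 alone these were 0.42 (adjusted p = 0.0932) and -0.64 (adjusted p = 0.0526). A fit of the 2 states alone gave 0.35 for Cry1 (adjusted p = 0.365) and -0.63 for Bhlhe40 (adjusted p = 0.128). Cry1 also missed 0.05 with all 31 animals (0.0728) and Bhlhe40 without a term for experiment (0.0723). Cry1 passed 0.05 no longer when any 1 of K104, K111, K112 or K116 was left out, and Bhlhe40 when K104 or K115 was, up to 0.0753 and 0.0691.

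Comparing the mean of IBA, Ent, EAr and LAr with the mean of SA and SpD asks whether a repressor had a seasonal level. Ciart aside, this called 2 of the 7 genes, beside 9.73% of all genes. Bhlhe41 was 0.73 ± 0.10 higher in hibernation (adjusted p = 1.18e-05) and Per3 0.59 ± 0.13 (adjusted p = 9.48e-04), and Ciart, with its limit given above, had a difference of 0.74 ± 0.13. At 0.05 there were 4 of 7, with Cry1 0.42 lower (-0.42 ± 0.10, adjusted p = 0.00182) and Bhlhe40 0.38 ± 0.11 higher (adjusted p = 0.00939), beside 33.4% of all genes. Per1 (0.00, 95% interval -0.35 to 0.35), Per2 (0.10) and Cry2 (0.09) did not pass. None of the 23 cell type markers was called in this contrast in limma, where 9.73% of all genes were. At 0.05, 9 markers passed (12 at an unadjusted p of 0.05), beside 33.4% of all genes. All 9 were lower in hibernation, as were 16.8% of all genes at 0.05. These markers were Slc34a1, Slc5a2, Umod, Aqp2, Atp6v0d2, Aqp3, Kdr, Nrp1 and Col1a1. The proximal tubule markers Slc34a1 and Slc5a2 differed by -0.85 (adjusted p = 0.00163) and -1.08 (adjusted p = 0.00319), Aqp3 by -0.87 (adjusted p = 0.00125) and the intercalated cell marker Atp6v0d2 by -0.34 (adjusted p = 0.00136). Their part in the seasonal differences of the repressors was not tested.

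The season contrast was fitted again without the LAr animals, a comparison added after the values were seen. Bhlhe41 was the 1 gene still called, at 0.62 ± 0.10 (adjusted p = 2.85e-04), beside 4.26% of all genes. Ciart then had 0.15 ± 0.13, Bhlhe40 0.24 (adjusted p = 0.157), Per3 0.52 (adjusted p = 0.0119) and Cry1 -0.34 (adjusted p = 0.0229). The seasonal difference of Ciart thus rested on LAr. The call of Per3 stood just under the threshold and exceeded it when any 1 of 23 of the 29 animals was left out, with adjusted p from 2.57e-04 to 0.00417 over all 29, and with all 31 animals (0.00302). No difference between the sexes was called for the 8 genes in limma, beside 0.0233% of all genes, with adjusted p of at least 0.841 and 0 members at an unadjusted p of 0.05.

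Log2 ratios of 2 repressors within an animal ask whether they changed by unequal amounts. Exact two-sided permutation tests were made for 5 ratios in 5 pairs of states, 25 tests in all. The ratio of Cry1 to Cry2 was 0.67 higher in IBA than in LAr (0.84 in the fit with sex and experiment), -0.66 ± 0.15 against -1.33 ± 0.25 (SD), with no overlap. The ratio of Per2 to Cry1 was 0.63 lower in IBA than in LAr (-0.63), and that of Per1 to Per2 0.40 lower (-0.40). The ratio of Per1 to Per3 was 0.48 higher in Ent than in IBA. Each of these 4 had an exact p of 0.00794, the smallest that 5 against 5 animals allow, and an adjusted p of 0.0496 over the 25. The test had no term for experiment, and IBA holds animals of both experiments but LAr of experiment 2 alone. The ratios of Cry1 to Cry2 and of Per2 to Cry1 share a gene. How often ratios of other gene pairs differ is not given here, so the count is not particular to the repressors. None of the ratios differed between LAr and EAr at an adjusted p under 0.05.

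In experiment 2 alone the 4 differences were 0.73, -0.88, -0.30 and 0.58, in the order given. With 2 IBA animals there the smallest exact p is 0.0952, or 0.333 against 2 Ent animals, so none could pass. Leaving out 1 animal cannot make groups overlap that did not before, so it is no test of that separation. With any 1 of the 10 animals of a pair left out, the difference was 0.61 to 0.76 for Cry1 to Cry2. It was -0.70 to -0.56 for Per2 to Cry1, -0.44 to -0.36 for Per1 to Per2 and 0.41 to 0.57 for Per1 to Per3. The adjusted p then exceeded 0.05 for all 4 ratios, since 4 against 5 animals cannot reach it.

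**Figure D3:**
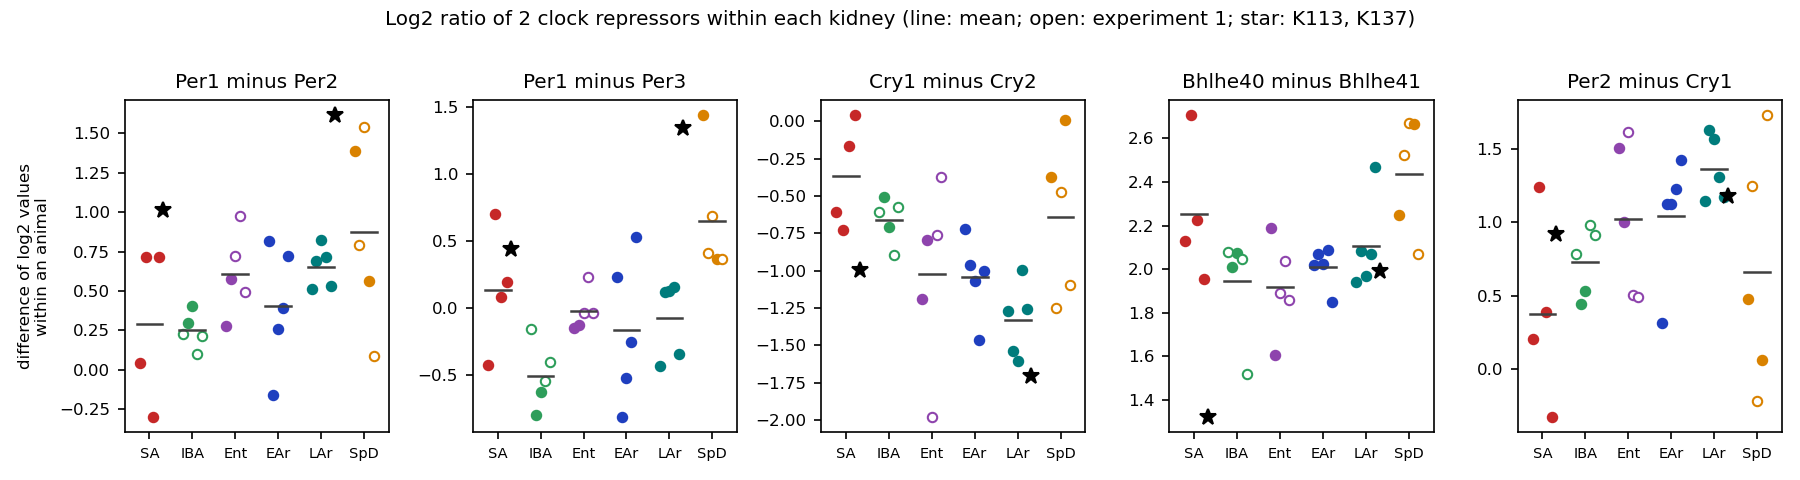
Difference of the log2 values of 2 repressors within each animal (vertical axis, each panel with its own range) by state, with lines for the means, open circles for experiment 1 and stars for K113 and K137. The IBA and LAr animals do not overlap for Cry1 minus Cry2, Per2 minus Cry1 and Per1 minus Per2.

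Within the states, 7 of the 8 repressors deviated together from animal to animal. The correlation of their deviations from the fit over the 29 animals was computed for all 28 pairs of genes, by permutation with 100000 resamples. The shuffling treats the 29 deviations as independent and does not count the degrees of freedom that the fit had spent. Its p-values may therefore be too small. All 21 pairs that leave Cry1 out passed a Benjamini-Hochberg adjusted p of 0.05 in both Pearson's r (0.50 to 0.77) and Spearman's rho (0.47 to 0.80), with adjusted p for r of at most 0.00805. None of the 7 pairs with Cry1 did (r from -0.24 to 0.09). Of all 82722000 pairs of genes in the table, 6.83% had an r at least as high as the lowest of the 21. The split by Cry1 was seen in the data and was not fixed beforehand.

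Per2 and Per3 had the highest r, 0.77 (permutation p = 2e-05, the smallest that the resamples give), with rho 0.70 (permutation p = 1e-04). Without K6 and K9, the farthest from the median in Per2, r was 0.69, and it was 0.88 in the 9 animals of experiment 1 and 0.66 in the 20 of experiment 2. Per3 and Cry2 had r of 0.77 and rho of 0.80 (permutation p = 2e-05 for each), with r of 0.76 without K9 and K139, 0.91 in experiment 1 and 0.62 in experiment 2. Per1 and Ciart had r of 0.74 (permutation p = 2e-05) and rho of 0.75 (permutation p = 4e-05), with 0.72 without K139 and K165, 0.86 and 0.71. Over the 21 pairs r was 0.64 to 0.95 in experiment 1 and 0.30 to 0.71 in experiment 2.

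High values of r are not rare in this table. Over the 7 genes the 95th percentile of r with the 12862 other genes ran from 0.47 for Ciart to 0.60 for Cry2, and the pairs of Per1 with Cry2 and with Bhlhe40 lay below that of their partner. The rank of another repressor among those genes ran from 2nd, Per2 with Per3, to 1284th, Per1 with Cry2. For Cry2, Per3 ranked 53rd and Ciart 484th. The values of a pair come from the same libraries and share their depth and composition. The IBA animal K1 had the highest value of its state in 8 of 8 repressors and the Ent animal K2 in 6, with Cry1 the lowest of Ent in K2 (9.07). K8 was the lowest Ent animal in 6, K154 the lowest EAr animal in 5 and K116 the lowest LAr animal in 5, and K139 was the highest SA animal in 5 with Cry1 again the lowest. The share of all genes in which these animals were the extreme of their state is not given here. These counts therefore cannot be read as particular to the repressors.

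**Figure D4:**
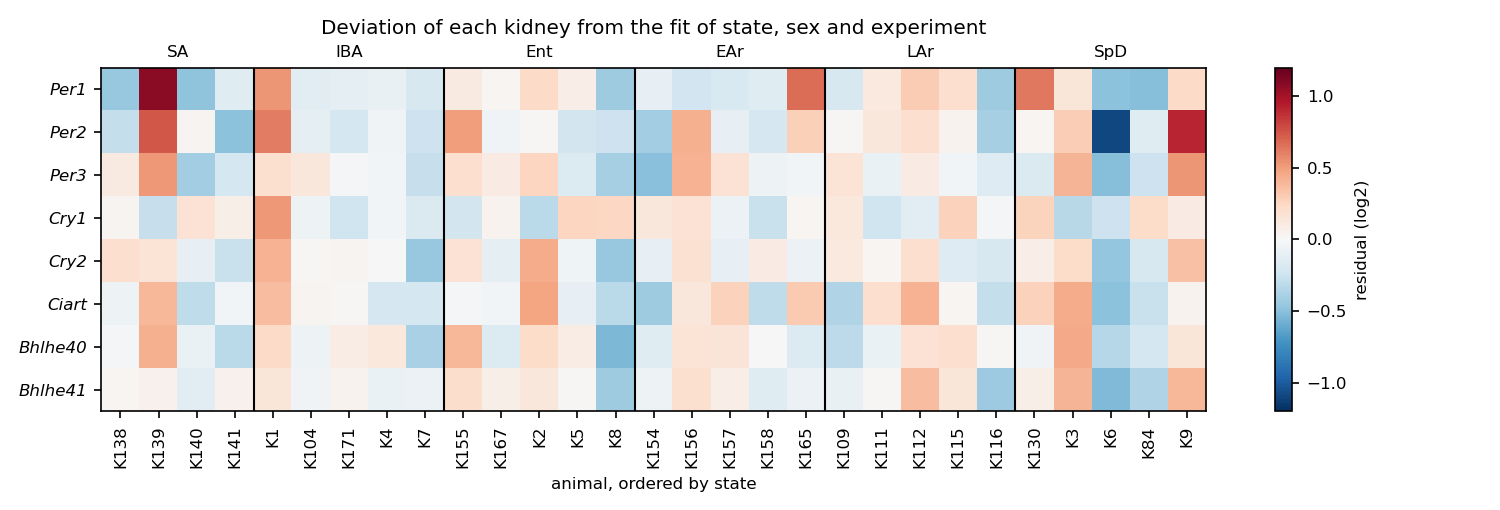
Residuals (colour, log2 units) of the 8 repressors (rows) in each of the 29 animals (columns, ordered by state) after the fit of state, sex and experiment. Red columns such as K1 and blue ones such as K8 show animals whose repressors deviated together, with Cry1 often apart.

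K113 and K137 were compared with the others of their own state without a test. The share of all genes outside the range of the others is not given here, so the counts cannot be read as particular to the repressors. In K113 the repressors lay above all 5 other LAr animals for 6 genes, among them Per1 at 12.42 (others 10.96 to 11.66), Ciart at 9.84 (8.27 to 9.05) and Cry2 at 11.33 (10.51 to 10.87). Per3 lay below them at 11.07 (11.31 to 11.61), and Per2 lay within their range at 10.81. K137 lay above the 4 other SA animals for 4 genes, with Bhlhe41 at 9.96 (9.15 to 9.31) and Per3 at 11.20 (10.21 to 11.13), and below them for Cry1 at 9.70 (9.87 to 10.21). The inner medulla mean of both was above that of every other animal of its state, as given above, and its part in these values was not tested.

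Beside the repressors, 49 genes of the surrounding clock and of the signals that reach it were listed, and 45 were in the table. Across the states 6 of the 45 changed, Nr1d1, Nfil3, Atf4, Cirbp, Rbm3 and Hspa8, and 22 passed 0.05, where 9.34% and 46.1% of all genes did. The clock activators gave 0 of 3, with Arntl, which encodes BMAL1, at a fitted 8.56 in IBA and 9.48 in SpD (adjusted p = 0.0108), Clock (adjusted p = 0.396) and Npas2 (adjusted p = 0.619), and 1 of the 3 had an unadjusted p under 0.05. The nuclear receptors that repress or activate Arntl gave 1 of 4, Nr1d1, which encodes REV-ERBα, at 9.26 in SA, 10.47 in EAr and 11.55 in LAr. Nr1d2 had an adjusted p of 0.0481.

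The bZIP output factors of the clock gave 1 of 4, Nfil3, at 8.02 in EAr, 9.15 in LAr and 8.03 in IBA, and Hlf and Dbp passed 0.05. In LAr minus EAr, Nfil3 was the 1 listed gene called (1.13). Nfil3 was also the 1 listed gene called in IBA minus SA, as lower in IBA. In IBA minus LAr, Nr1d1 (-1.85), Nfil3 (-1.12) and Cirbp (-0.66) were called. The lists of kinases and ligases that set PER and CRY turnover gave 0 of 9 across the states, with Csnk1d and Csnk2a2 among those passing 0.05, and the clock partner proteins gave 0 of 6, with Skp1 and Nono passing 0.05 (3 of 9 and 2 of 6 at an unadjusted p of 0.05). In Ent minus IBA, Csnk1d, a kinase of PER proteins, was called as lower.

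Of the inputs, CREB signalling gave 1 of 8 across the states, Atf4, which was lost with all 31 animals (adjusted p = 0.00200), while the coactivators Crtc2 and Crtc1 had 0.00961 and 0.0758. The glucocorticoid response gave 0 of 6 across the states, and its members Tsc22d3, Klf9 and Sgk1 passed 0.05, as did 3 at an unadjusted p. In the season contrast Tsc22d3 was called as lower in hibernation (-0.81). The temperature cues gave 3 of 5, of which Hspa8 was lost with all 31 animals (adjusted p = 0.00274), and all 5 passed 0.05. Cirbp and Rbm3, cold-inducible RNA-binding proteins, were higher in hibernation by 0.49 and 0.93, and the chaperone Hspa8 was lower (-0.43). In that contrast 7 of the 45 listed genes were called, beside 9.73% of all genes, namely Nr1d1 (1.01), Csnk2a2 (0.16), Cirbp and Rbm3 as higher and Nfil3 (-0.55), Tsc22d3 and Hspa8 as lower.

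For each repressor called across the states, the genes whose values were most like it over the 29 animals were found, as a description. Nearest to Ciart were Ppp1r15a, a phosphatase subunit of the integrated stress response (Pearson's r = 0.95), Otud1, a deubiquitinase (0.89), and Gadd45g, a growth arrest gene (0.87). Nearest to Bhlhe41 were Retreg2 (0.88), Mbd2, a methyl-DNA-binding protein (0.85), and Slc16a11, of the monocarboxylate transporter family (0.84). These values hold the differences between the states, and the points share their libraries.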

How the data were processed

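Polyadenylated RNA of the kidneys was sequenced by the authors, who used cutadapt for trimming and HISAT2 to take out mitochondrial reads, quantified transcripts of the HiC_Itri_2 assembly with Salmon and summed them to genes with tximport. The authors kept genes with an rlog of at least 7 in 4 of 5 animals of a group, and the deposited values, of 31 animals, are log2 values from the rlog of DESeq2, batch-corrected with limma. The means of experiments 1 and 2 over the 31 animals were checked to be equal, the largest difference over the 8 genes being 3.55e-15.

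The authors' test on counts was replaced by limma 3.58.1 in R 4.3.3, fitted to all 12863 genes in 29 animals with state, sex and experiment, a trend of the prior variance with level, and p-values adjusted by Benjamini-Hochberg per contrast, called under 0.001. Ratios were tested with exact permutation tests. The model was tested on simulated data. No replicate is technical, each being 1 animal. Figures were drawn with matplotlib 3.10.9.

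The text names all 8 members with their values, up to 3 genes of each clock list by lowest adjusted p of the F test, and the 3 genes most like each called member. Genes beyond these are named where a count of called genes is small. Some genes under this rule are not reported here. The members and lists were chosen with earlier results of these data known. Sequences and promoter motifs were not used here. As alternatives, the fit was repeated with all 31 animals, without experiment, sex or the trend, with a robust prior, with animal weights, in experiment 2, in genes whose mean was 8 or more, after median centring, at other thresholds, on the 2 groups compared, as an exact test and with each animal left out. The season contrast without LAr, interactions, residual correlations and the counts without Ciart were added later. The fit does not count the degree of freedom that the authors' batch correction had spent.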

Additional observations from a re-analysis of the deposited data

Results flagged for a closer look

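Single animals stood apart from the rest of their state in 2 of the 48 groups of 4 or 5 animals that were tested for an outlier, where chance gives about 1 in 20. Both concerned Per1, which read 11.35 in the IBA animal K1 and 11.64 in the EAr animal K165. K113 and K137, which were left out of the tests in 29 animals, lay above the other animals of their state in 10 values. In K113 these were Per1 at 12.42, Cry1 at 9.63, Cry2 at 11.33, Ciart at 9.84, Bhlhe40 at 12.86 and Bhlhe41 at 10.87. In K137 they were Per3 at 11.20, Cry2 at 10.69, Ciart at 6.60 and Bhlhe41 at 9.96. The share of all genes above the others in these animals is not given here.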

How the results depend on the processing

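None of the results followed through these alternatives turned its direction. Small differences that were not called could do so, as for Per2 in Ent minus IBA (-0.02, and 0.46 in experiment 2 alone). The count of members called across the states was 2 in the 29 animals, 4 with animal weights, 3 in experiment 2 alone, 1 among genes with a mean of at least 8 (Ciart is below that mean), 5 at 0.05 and 4 at 0.01. In LAr minus EAr and IBA minus LAr it was 0 among genes with a mean of at least 8, and in IBA minus LAr it was 3 at 0.05 and 0 in a fit of the 2 groups. IBA minus SA gave 1 at 0.05, and SpD minus IBA 1 at 0.05 and 1 at 0.01. The season contrast gave 5 at 0.05, 5 at 0.01, 1 without LAr, and 2 to 4 with each animal left out. These counts include Ciart where it was called, and nothing is read from its part in them. Ciart aside, the 29 animals gave 1 of 7 across the states and 2 of 7 in the season contrast. The ratios gave 4 differences, 0 in experiment 2 alone and 0 to 4 with each animal left out. The seasonal difference of Ciart, given as a size, was 0.74 without a term for experiment and 0.73 in experiment 2 alone. No paired analysis was possible because each kidney came from a different animal in a single state. Depth is unknown, and 4 or 5 animals per state limit the precision.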
